A study of Mus musculus with 4 samples.

Results

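The genes described here are 10 transcription factors, hormones and granule proteins of enteroendocrine cells, namely Isl1, Insm1, Neurod1, Neurog3, Nts, Cpe, Chga, Chgb, Gcg and Pyy. They were taken by symbol from a table of 16857 genes, and all 10 had a row. Bulk RNA was sequenced from 4 lines of mouse adenoma colonoids, epithelial structures grown in culture, with 1 library per line. The 2 G0 lines, numbered 75 and 179, were labelled Apcnull/LSL-mTERT-het, and the 2 G2 lines, numbered 157 and 236, Apcnull/LSL-mTERT-homo, so the Apc alteration was shared by both groups and the copies of the Tert allele differed. All 4 lines carry Apcmin in their names, and neither age, sex nor treatment is given in the labels used here. The series compares colonoids with low and high chromosomal instability, without the labels saying which generation is which.

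Enteroendocrine cells are the rare hormone-secreting cells of the gut epithelium. Secretory progenitors enter this fate through a brief pulse of the bHLH factor Neurog3, and the factors Neurod1, Insm1 and Isl1 then act in maturation and in the choice of hormone. Mature cells store peptide hormones such as those encoded by Gcg, Pyy and Nts in dense-core granules, whose matrix holds the chromogranins Chga and Chgb and whose prohormones are trimmed by enzymes such as carboxypeptidase E, encoded by Cpe.

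Levels are given as normalized counts, the counts recovered from the deposited log2 values divided by the authors' size factor of each library, and means carry the SD over 2 libraries. The 4 libraries held 16545429 to 17901744 counts, with 14119 to 14215 genes above 0 in each. A count of 0 allows up to 3 counts in a library, which is 2.93 to 3.05 normalized counts, and this level is called the floor. The floor and the counting intervals cover counting error only. Tert, the altered gene, stood at 93.3 and 97.5 in the G0 libraries and at 0.0 and 1.0 in the G2 libraries. The Y-linked gene Kdm5d was at 0.0 in both G0 libraries and at 526.4 and 522.0 in the G2 libraries, so the group and the presence of Y transcripts cannot be told apart for any gene below. The labels give a line number to each library without naming the mouse it came from, so the p-values reflect only how far these 4 libraries vary within a group, which may be partly technical.

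Of the 10 genes, Isl1, Insm1, Nts and Cpe were higher in G2 and 0 were lower, by limma with Benjamini-Hochberg adjustment over 13981 genes and a threshold of 0.05. Isl1 rose from near 0 to a mean of 290.0 normalized counts, Nts from near 0 to 21.8, Insm1 from 0 to 6.9, and Cpe from 81.8 to 167.4. Chga stayed near the floor in both groups, and Neurod1, Neurog3, Chgb, Gcg and Pyy had between 0 and 1 count in all 4 libraries together. Over all genes tested, 10.5% passed in either direction and 5.93% were higher in G2. For the same 4 genes both G2 libraries lay above both G0 libraries, as they did for 29.2% of all genes tested, and 57.8% of all genes had groups that did not overlap in either direction. Only 5 of the 10 genes reached the mean of 1 normalized count needed for a test. Of the 4 that passed, 3 reached that mean through the G2 libraries alone, so their number is not set against the share over all genes. Among the 722 tested genes with at most 3 counts over both G0 libraries, 105 passed (14.5%). In bulk RNA, a change in the number of cells of a type and a change in RNA per cell cannot be told apart.

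**Figure D1:**
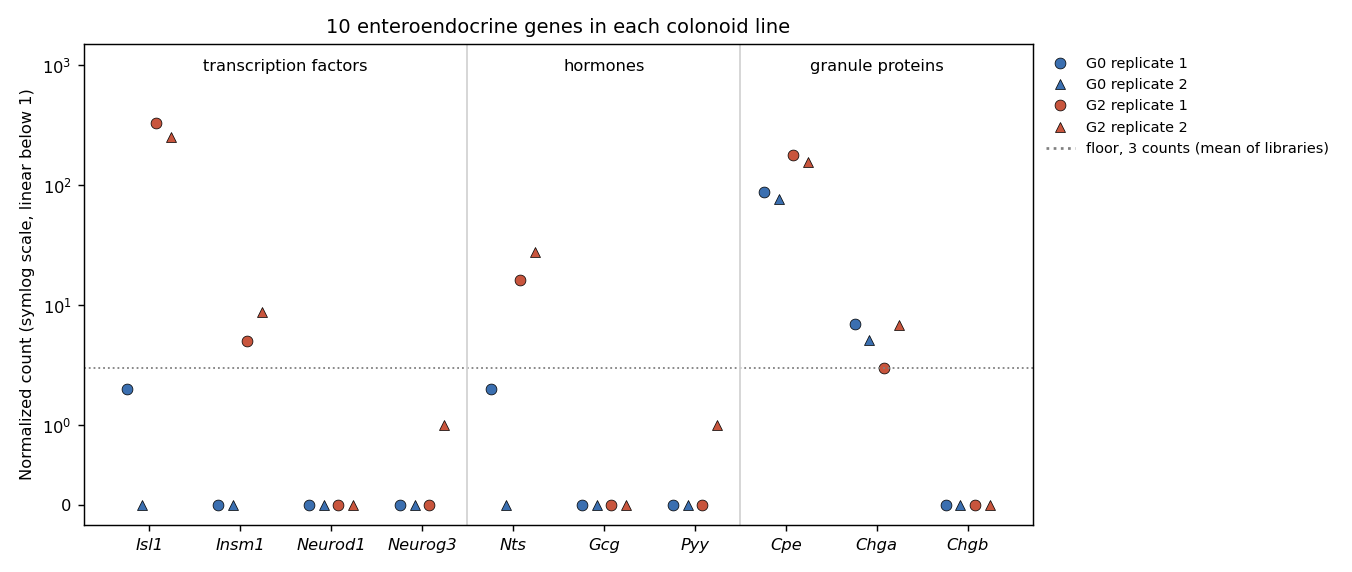
Normalized count (vertical axis, logarithmic above 1) of the 10 enteroendocrine genes in each library, circles for replicate 1 and triangles for replicate 2, with the floor of 3 counts as a dotted line. The G2 points of Isl1, Insm1, Nts and Cpe lie above both G0 points, while Neurod1, Gcg and Chgb lie at 0 in all 4 libraries.

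Isl1 is a LIM-homeodomain transcription factor of motor neurons, pancreatic islet cells and enteroendocrine cells. It lies on chromosome 13 from 116298270 to 116309688 (GRCm38.p6, also called mm10). Isl1 stood at 2.0 and 0.0 normalized counts in the G0 libraries and at 329.8 and 250.2 in the G2 libraries. Both G2 lines were high, both G0 lines were under the floor, and the groups did not overlap. The ratio of the means was 295 with a 95% exact counting interval of 79.9 to 2399, since G0 held 2 counts in all. On the log2 scale the change of Isl1 was 7.39, SE 0.58 (adjusted p = 0.000793). It rested on the low G0 level: without G0 replicate 2 the ratio was 148, and without G0 replicate 1 the remaining G0 library was at 0 and Isl1 was at least 95.2-fold higher in G2.

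Isl1 had the largest change of the 10 genes, and the 250 bases before its start are shown for that reason. The sequence is RefSeq's (GRCm38.p6, chr13:116309689-116309938, minus strand, written 5′ to 3′). Capitals mark matches on either strand to CANNTG, the E-box bound by bHLH factors such as Neurog3 and Neurod1, and to TGACG, the half-site of the cAMP response element.
Isl1 promoter: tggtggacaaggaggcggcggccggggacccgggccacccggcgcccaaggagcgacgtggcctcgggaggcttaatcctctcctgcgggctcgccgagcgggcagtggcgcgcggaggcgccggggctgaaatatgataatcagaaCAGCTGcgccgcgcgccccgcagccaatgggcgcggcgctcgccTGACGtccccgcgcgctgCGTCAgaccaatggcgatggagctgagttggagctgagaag
It holds 1 E-box, which begins 103 bases before the start, and 2 half-sites, at 59 and 41 bases before it. An E-box was found in 66.2% of all 32851 windows of this length in the table, and a TGACG half-site in 17.8%. No TATAAA, present in 12.4% of the windows, was found in the Isl1 window. Guanine and cytosine make up 71.2% of it, against a median of 52.4% over all windows. These matches are letters in the sequence, and no binding was measured.

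Insm1, a zinc-finger factor needed for endocrine differentiation, lies on chromosome 2 from 146221997 to 146225020. It was at 0.0 in both G0 libraries and at 5.0 and 8.8 normalized counts in the G2 libraries. Both G2 lines were above the floor and both G0 lines at 0, from 14 counts in all. Insm1 was at least 2.31-fold higher in G2. On the log2 scale the change of Insm1 was 2.94, SE 0.72 (adjusted p = 0.0477). The call lay close to the threshold, and with a pseudocount of 5 the adjusted p was 0.0639.

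The bHLH factors that stand before and beside Isl1 in the lineage were at or near 0. Neurog3, the factor that commits progenitors to the endocrine fate, had a count of 0 in 3 libraries and 1 count in G2 replicate 2. Neurod1, a target of Neurog3 that acts in later differentiation, had a count of 0 in all 4 libraries. These genes were not detectable at this depth and gave no fold change. Neurog3 overlaps Fam241b on the opposite strand and Neurod1 overlaps Gm26755 there and Cerkl on its own strand, and the strand setting of the counting is not given in the sources used here.

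Nts encodes the precursor of neurotensin, a peptide of enteroendocrine cells and neurons that acts on gut motility and secretion. The gene lies on chromosome 10 from 102481756 to 102490418. Nts stood at 2.0 and 0.0 normalized counts in the G0 libraries and at 16.1 and 27.4 in the G2 libraries. Both G2 lines were above the floor, both G0 lines were under it, and the groups did not overlap. The ratio of the means was 22.2 with a counting interval of 5.71 to 186. On the log2 scale the change of Nts was 3.68, SE 0.73 (adjusted p = 0.0242). Without G0 replicate 2 the ratio was 11.1, and without G0 replicate 1 Nts was at least 7.14-fold higher in G2.

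The window before Nts is shown as that of the 1 hormone gene among the 10 that rose (RefSeq, GRCm38.p6, chr10:102490419-102490668, minus strand, 5′ to 3′, capitals as above).
Nts promoter: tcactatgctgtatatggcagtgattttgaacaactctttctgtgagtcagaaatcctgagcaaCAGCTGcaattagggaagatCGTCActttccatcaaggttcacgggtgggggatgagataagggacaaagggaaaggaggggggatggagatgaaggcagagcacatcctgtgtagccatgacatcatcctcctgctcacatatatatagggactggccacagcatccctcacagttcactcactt
It holds 1 E-box, 186 bases before the start, with the same letters as that of Isl1 (CAGCTG), and 1 TGACG half-site on the other strand, 166 bases before it. Of the 8 genes of the 10 with an entry in the promoter table, 8 held an E-box and 4 a TGACG half-site: Isl1, Nts, Chga and Chgb. Over all windows the shares were 66.2% and 17.8%. Of the 4 genes with a half-site, Chga did not pass the test and Chgb had a count of 0. The bases after the start of the Chga entry were not found in its annotated transcripts, so the place of its half-site is less certain. TATAAA was found in the window of Gcg alone. Insm1 and Cpe are the other genes of the 10.

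The other hormone genes stayed at or near 0. Gcg, which encodes proglucagon and with it GLP-1 of colonic L cells, had a count of 0 in all 4 libraries. Pyy, which encodes peptide YY of the same cells, had 1 count, in G2 replicate 2. Neither was detectable at this depth in either group.

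Cpe, carboxypeptidase E, removes basic residues from prohormones and is also made outside endocrine cells. It lies on chromosome 8 from 64592542 to 64693109. Cpe stood at 87.4 and 76.2 normalized counts in the G0 libraries and at 178.5 and 156.4 in the G2 libraries. The groups did not overlap, and Cpe was the 1 gene of the 10 above the floor in every library by more than a few counts. Cpe was 2.05-fold higher in G2, with a log2 fold change of 1.03 and an SE of 0.25 (adjusted p = 0.0449). With no filter on low values the adjusted p was 0.0689, and with no intensity trend in the limma fit it was 0.0682.

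Neither chromogranin passed a test. Chga, the most widely used marker of endocrine granules, stood at 6.9 and 5.1 normalized counts in G0 and at 3.0 and 6.8 in G2. The groups overlapped, and the log2 fold change was -0.30 with a 95% interval of -1.78 to 1.18 (adjusted p = 0.791). Without G2 replicate 1 it was 0.18. Chgb had a count of 0 in all 4 libraries.

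**Figure D2:**
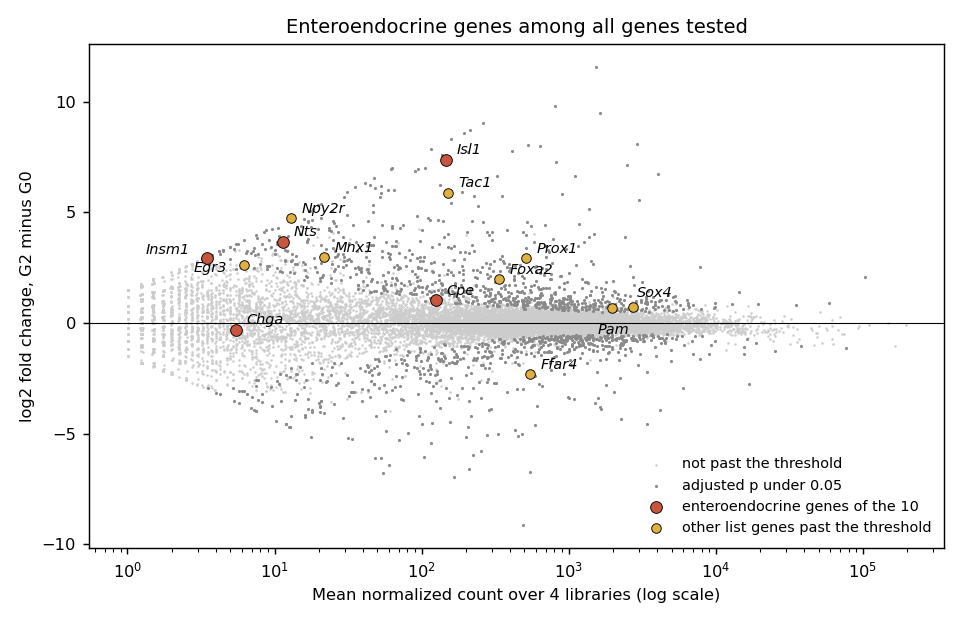
Mean normalized count over 4 libraries (horizontal axis, log scale) against the log2 fold change of G2 over G0 for the 13981 genes tested, with the 5 tested genes of the 10 in red and other enteroendocrine list genes past the threshold in yellow. Isl1 lies at 7.39 and Chga at -0.30, and Insm1 and Nts lie at the low end of expression.

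Levels of different genes are compared per kilobase of annotated exon. In G2 the mean per kilobase was 73.3 normalized counts for Isl1, 64.2 for Cpe, 17.4 for Nts, 2.23 for Insm1 and 1.79 for Chga. The difference between Isl1 and Cpe was smaller than the SD of Isl1 over its G2 lines, as was that between Insm1 and Chga against the SD of either, while Nts lay between the pairs. In G0 the order was different, with Cpe first at 31.3 per kilobase, then Chga at 2.17, Nts at 0.787 and Isl1 at 0.248. The positions of Chga, Nts and Isl1 in the G0 order rest on 12, 2 and 2 counts.

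The genes whose pattern over the 4 libraries was most like that of a gene of the 10 were sought by the Euclidean distance between centred log2 values. For Isl1 they were the unnamed gene model Gm41035 (distance 0.44), the homeobox gene Evx2 (1.19) and Tdg-ps (1.20), a pseudogene that can share reads with its parent. Evx2 stood at 0.0 and 0.0 normalized counts in G0 and at 132.1 and 121.2 in G2. For Nts they were the calpain gene Capn8 (0.51), the extracellular matrix gene Frem2 (0.53) and the peroxidasin gene Pxdn (0.55), which stood at 178.7 and 89.4 in G0 and at 1013.5 and 1591.3 in G2. For Cpe they were Rassf6, Ankrd22 and Znrf1, at distances of 0.06, 0.06 and 0.07. None of these genes belongs to the enteroendocrine lists described next.

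The 10 genes belong to wider lists of the lineage, which were written from textbook knowledge but with earlier results of these data known. The 5 lists held 91 distinct genes, of which 73 had a row and 39 were tested. Of these 39, 12 were higher and 1 was lower in G2. The 12 include Isl1, Insm1, Nts and Cpe. Isl1, Insm1, Nts, Egr3 and Npy2r had G0 means of at most 1.0 normalized count, below the filter on low values before rounding, and passed it through the G2 libraries, so neither this count nor that of the factors, hormones or receptors below is read against the 10.5% of all genes that passed.

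Among 24 transcription factors of the lineage, 13 were tested, 7 were higher and 0 were lower in G2. The median log2 fold change of the 13 was 0.70 and that of all genes 0.01, and since Isl1, Insm1 and Egr3 had to be high in G2 to be tested, the median is a description only. Besides Isl1 and Insm1 these were Prox1, Foxa2, Mnx1, Egr3 and Sox4. Prox1, a homeobox factor of endocrine progenitors that is also a Wnt target in colon adenomas, stood at 135.5 and 102.6 normalized counts in G0 and at 889.5 and 927.6 in G2 (7.63-fold, adjusted p = 0.000508). Foxa2, a forkhead factor of endoderm, stood at 120.8 and 151.4 in G0 and at 556.7 and 513.2 in G2 (3.93-fold, adjusted p = 0.00237). The groups of both genes were well apart. Mnx1, a homeobox factor of motor neurons and pancreatic beta cells, rose from 3.9 and 4.1 to 32.3 and 45.9 (9.79-fold, adjusted p = 0.0103).

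Egr3 and Sox4 were closer to the threshold. Egr3, an immediate early factor, rose from 1.0 and 1.0 to 11.1 and 11.7 normalized counts (adjusted p = 0.0371). The ratio, from 2 counts in G0, was 11.4 and its counting interval ran from 2.83 to 100. Its adjusted p was 0.0545 among genes with a mean of at least 5 and 0.0543 on the deposited log2 values. Sox4, an early factor of the endocrine path that is also active in stem cells, stood at 2358.5 and 1812.2 in G0 and at 3061.8 and 3709.5 in G2 (1.62-fold, adjusted p = 0.04997), and it did not pass under 5 of 8 other settings that kept all 4 libraries and no block. Prox1os and Gm28172 overlap Prox1, and Gm26735 overlaps Sox4, on the opposite strand. Of the 6 tested factors that did not pass, Lmx1a, Etv1 and Foxa1 were lower in both G2 libraries. Lmx1a stood at 9.8 and 4.1 normalized counts in G0 and at 1.0 and 0.0 in G2 (adjusted p = 0.104). Etv1 stood at 16.7 and 13.2 in G0 and at 4.0 and 3.9 in G2 (adjusted p = 0.0888). Foxa1 stood at 5497.6 ± 252.7 and 4394.8 ± 672.0 (adjusted p = 0.22). Rfx3, Hhex and Pax6, whose groups overlapped, had log2 fold changes of 0.23, 0.48 and -1.3. Atoh1, Neurod1, Pax4, Rfx6, Myt1 and Fev had a count of 0 in all 4 libraries. Atoh1 is the factor of all secretory fates, and Pax4 and Rfx6 act in endocrine subtypes.

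Among 20 genes for hormones and serotonin synthesis, 16 had a row and 4 were tested, of which Nts and Tac1 were higher and 0 were lower in G2. Tac1 encodes the precursor of substance P and neurokinin A, made by enterochromaffin cells and enteric neurons. It stood at 5.9 and 2.0 normalized counts in G0 and at 421.6 and 172.0 in G2, with the groups apart and a wide spread within G2. The ratio was 74.9 and the log2 fold change 5.89 with an SE of 0.58 (adjusted p = 0.0021). Without G0 replicate 1 the ratio was 146, and without G2 replicate 1 it was 43.4. Per kilobase of exon Tac1 reached 87.3 normalized counts in G2, against 17.4 for Nts.

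Several other genes of the hormone list were not detected. Insl5 of distal L cells, Ghrl, Iapp, Penk and Nmu had a count of 0 in all libraries, as did Gcg. Tph1, the first enzyme of serotonin synthesis in enterochromaffin cells, had 1 count in all, in G0. Nmb, the neuromedin B precursor, stood at 11.5 ± 3.8 and 20.4 ± 5.4 normalized counts (adjusted p = 0.338).

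Among 25 genes of dense-core granules and prohormone processing, 14 were tested, 2 were higher and 0 were lower in G2, with a median of -0.41, and 2 of 14 is near the 10.5% of all genes that passed. These were Cpe and Pam, the enzyme that amidates peptides such as substance P. Pam stood at 1508.2 and 1537.9 normalized counts in G0 and at 2320.5 and 2528.7 in G2 (1.59-fold, adjusted p = 0.0217), and its adjusted p was 0.11 with no intensity trend. Slc18a1, the vesicular monoamine transporter of enterochromaffin cells, stood at 62.8 and 53.8 in G0 and at 245.1 and 108.5 in G2, where G2 replicate 1 was the higher. It missed the threshold (adjusted p = 0.0653). It overlaps Atp6v1b2 and Gm15716 on the opposite strand. Cplx2, a regulator of vesicle fusion, at 17.5 ± 0.3 and 111.1 ± 95.8, and Cadps, a priming factor of dense-core granules, at 176.0 ± 20.5 and 86.5 ± 16.0, did not pass either (adjusted p = 0.0678 and 0.0532). Like Cadps, Syt7 and Pcsk1n were lower in both G2 libraries without passing. Syt7 stood at 36.0 ± 0.9 and 12.8 ± 8.1 (adjusted p = 0.112) and Pcsk1n at 8.1 ± 5.8 and 1.0 ± 1.4 (adjusted p = 0.158). Ptprn and Scg5 leaned the same way at low levels, while Ptprn2 leaned up with overlapping groups. The proconvertase gene Pcsk1 had at most 1 count per library, and the granin gene Scg2 was at 0 except for 4 counts in G2 replicate 2.

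Among 12 nutrient and bile acid sensors, 6 were tested, 0 were higher and Ffar4 was lower in G2, with a median of -0.02. Over all genes 10.5% passed, and with 6 tested genes this count is not read against that share. Ffar4, a receptor for long-chain fatty acids found on endocrine and other epithelial cells, stood at 859.2 and 927.4 normalized counts in G0 and at 119.0 and 269.8 in G2 (4.6-fold lower, adjusted p = 0.0099). Without G2 replicate 2 it was 7.51-fold lower, and with no intensity trend its adjusted p was 0.0884. Among 10 receptors of the peptides of Nts, Gcg and Pyy, 2 were tested and Npy2r was higher in G2. Npy2r, a receptor of peptide YY, was at 0.0 in both G0 libraries and at 27.2 and 24.4 in G2 (adjusted p = 0.00491), which makes it at least 8.62-fold higher. Sort1, a sorting receptor that also binds neurotensin, stood at 3647.5 ± 19.8 and 3710.2 ± 259.6 (adjusted p = 0.925).

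**Figure D3:**
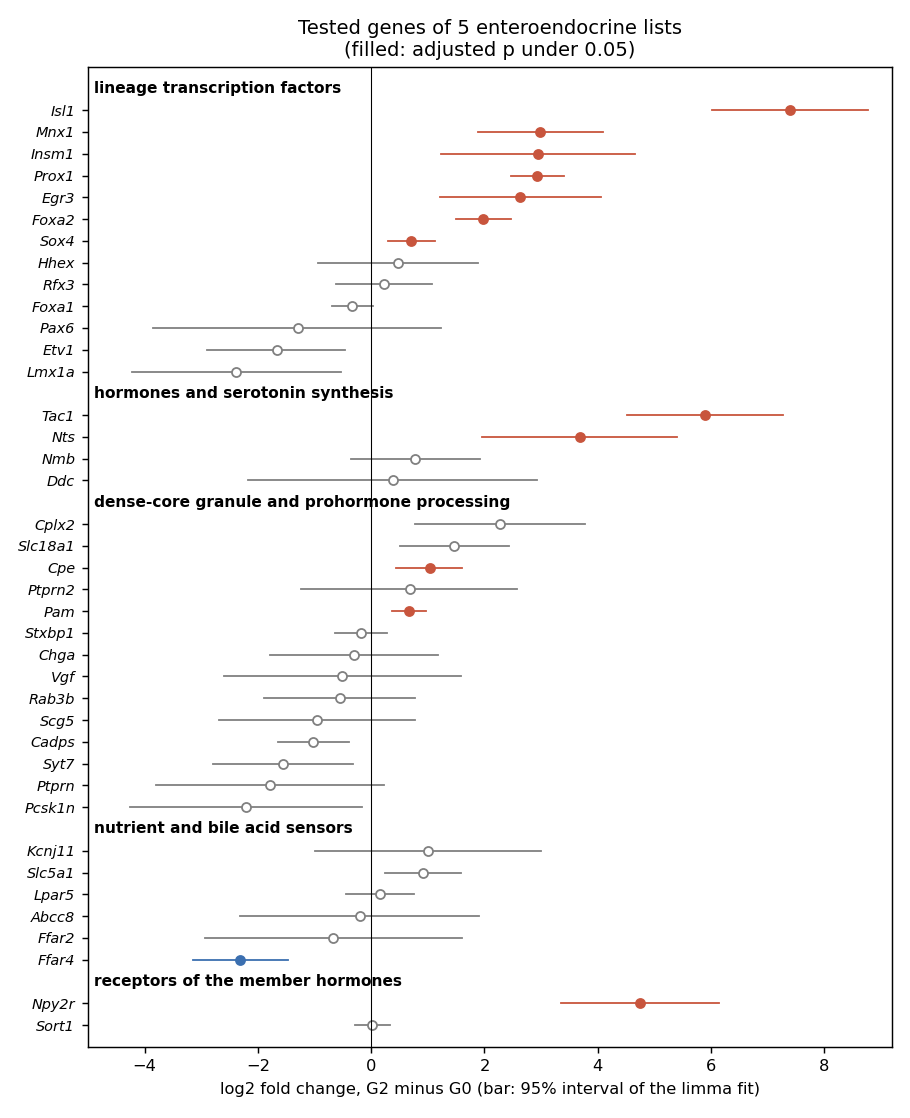
Log2 fold change of G2 over G0 (horizontal axis, with the 95% interval of the limma fit) for each tested gene of the 5 enteroendocrine lists, filled where the adjusted p was under 0.05. Of 39 tested genes, 12 are filled above 0 and Ffar4 is filled below 0.

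The name of the lineage was read beside a list of 10 enteroendocrine markers, which is not a separate check. All but Tph1, Scgn and Rfx6 are themselves among the 10 genes. Of the 10 markers, Chgb, Neurod1, Gcg and Rfx6 were at 0 in all libraries. The summed level of the list was 95.2 and 81.3 normalized counts in G0 and 186.6 and 174.0 in G2, and nearly all of it was Cpe. Without Cpe the other 9 markers summed to 7.9 and 5.1 in G0 and to 8.1 and 17.6 in G2. Insm1, itself called, gave 5.0 and 8.8 of these G2 sums. The defining markers of the cell type were thus at or near the floor in both groups, and the 10 genes are called enteroendocrine by their known role, not as a sign of such cells in these lines.

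Isl1, Insm1, Cpe and Nts are also expressed outside the gut epithelium, so lists of other cells were read beside them. The 8 enteric neuron markers with a row summed to 186.6 and 135.1 normalized counts in G0 and to 147.2 and 176.9 in G2, with 0 of 3 tested genes passing and Phox2a at 0 in all libraries. The 4 enteric glia markers summed to 7.9 and 5.1 in G0 and to 10.1 and 3.9 in G2, with S100b, Gfap and Cdh19 at 0. Of the pancreatic islet list only Pdx1 had a row, at 2.0 and 1.0 in G0 and at 0.0 in both G2 libraries. Fibroblast markers summed to 4.9 and 4.1 in G0 and to 8.1 and 10.8 in G2. Of these markers Col3a1 was higher in G2 (adjusted p = 0.0404), while Dcn and Pdgfra were at 0. Col1a1 leaned the opposite way, with 4.9 and 4.1 in G0 against 1.0 and 2.0 in G2, but missed the threshold (adjusted p = 0.306). Col1a2 had only 2 counts, in G2 replicate 2.

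Among the other epithelial lists, the 6 tuft cell markers with a row summed to 148.3 and 158.5 normalized counts in G0 and to 283.4 and 435.9 in G2. Nearly all of this sum was Dclk1 and Avil. Avil alone of 5 tested was higher (adjusted p = 0.0359), and Pou2f3, the factor that defines the lineage, was at 0. Avil overlaps Tsfm on the opposite strand. Dclk1 and Sh2d6 leaned up without passing (adjusted p = 0.179 and 0.0692). Alox5ap leaned down, with 2.9 and 8.1 in G0 against 1.0 and 2.0 in G2 (adjusted p = 0.299). The 9 goblet markers summed to 305.4 and 510.9 in G0 and to 416.5 and 284.4 in G2, with Clca1 higher, Fcgbp lower and Atoh1 at 0. The 7 colonocyte markers summed to 3640.9 and 4029.7 in G0 and to 5088.9 and 991.1 in G2, with Car1 higher and Cdh17 lower. The 4 markers of Paneth or deep crypt secretory cells, nearly all Mmp7, summed to 2947.7 and 3847.8 in G0 and to 2727.0 and 5480.6 in G2, with 0 of 2 tested genes passing and Ang4 at 0. The 5 macrophage markers with a row summed to 2120.9 and 3341.0 in G0 and to 3279.6 and 4118.0 in G2, nearly all of it Cd68 and Cd14, with Csf1r and Cd14 higher and Ptprc, the pan-leukocyte gene, at 0. Each marker list had few tested genes, and 10.5% of all genes passed, so these counts are not read as results about the lists. The part of these cell types in the rise of Isl1, Nts, Insm1 and Cpe was not tested.

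**Figure D4:**
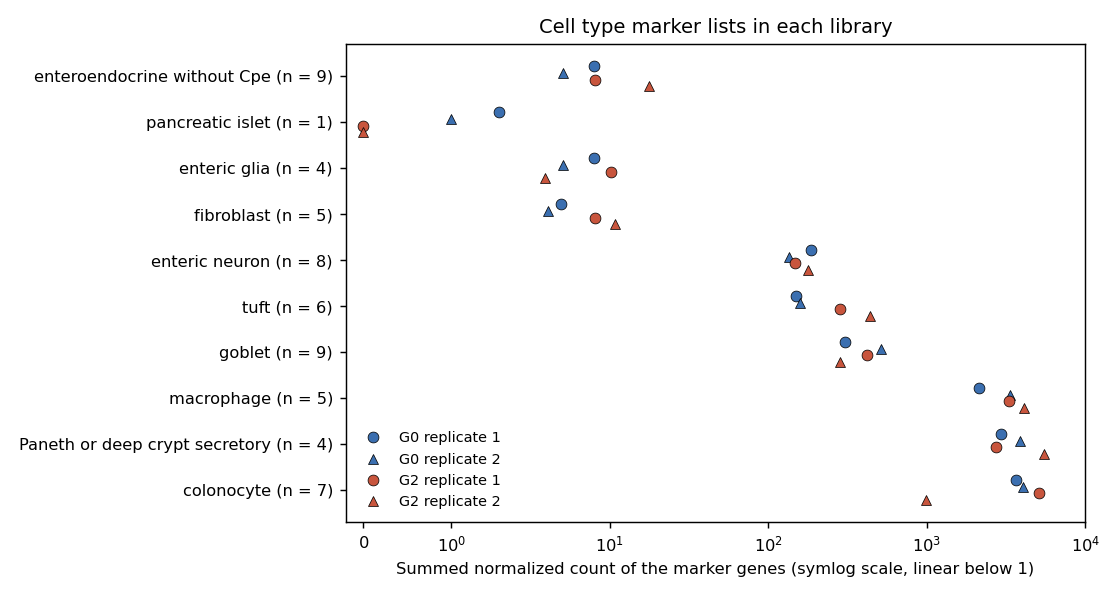
Summed normalized count of each cell type marker list (horizontal axis, logarithmic above 1) in each library, with n the number of markers that had a row. The 9 enteroendocrine markers other than Cpe sum to between 5.1 and 17.6. The G2 libraries lie above both G0 libraries in this list, by 8.1 against 7.9 at the closest, and in the tuft and fibroblast lists.

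The calls rested on all 4 libraries. When 1 library was left out, 0 of the 5 tested genes passed the adjusted limma threshold, while Isl1, Insm1, Nts and Cpe each had an unadjusted p under 0.05 in all 4 cases and kept their direction. The adjusted p of Isl1 then lay between 0.0718 and 0.148, that of Insm1 between 0.108 and 0.219, that of Nts between 0.165 and 0.251 and that of Cpe between 0.187 and 0.27. Over all genes the same fits called 0 to 2 genes. With all 4 libraries, Isl1 passed in 8 of 8 other settings of scaling, pseudocount, filter, scale and trend, with an adjusted p of at most 0.0215.

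**Figure D5:**
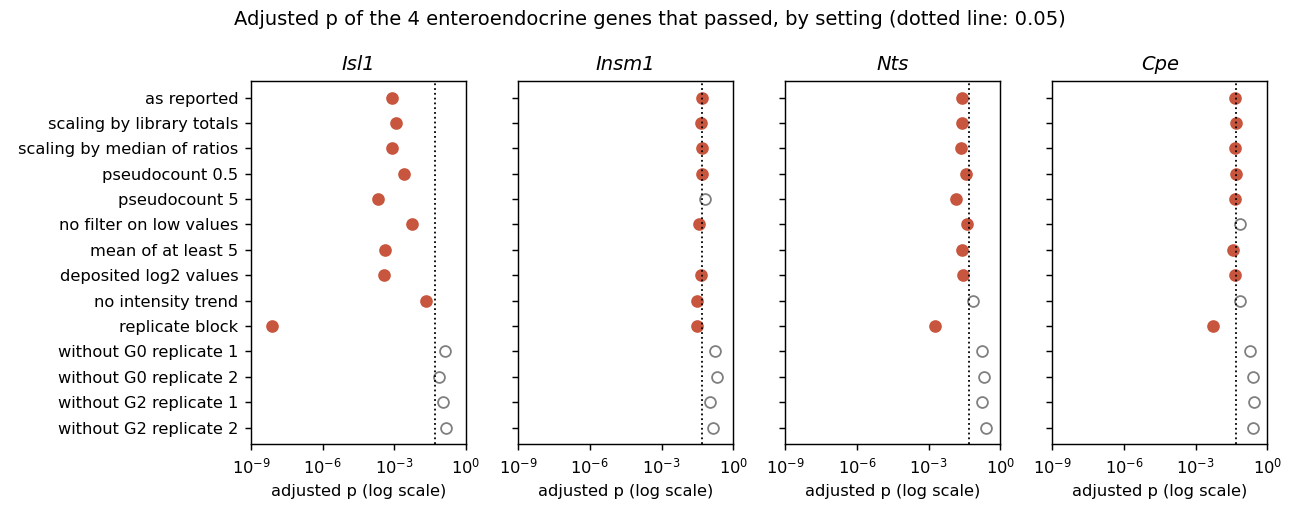
Adjusted p (horizontal axis, log scale) of Isl1, Insm1, Nts and Cpe under each processing setting, filled where it was under 0.05, with the threshold as a dotted line. Isl1 is filled in every setting that kept 4 libraries, and all 4 genes are open when any 1 library was left out.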

How the data were processed

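Per the labels' protocols, column-purified RNA of the 4 colonoid lines was sequenced by a service provider. Tools listed in the submitters' processing notes are DESeq2 1.32.0, StringTie 2.1.1, HISAT2 2.1.0, bcl2fastq 2.20.0 and R 3.5.2, with mm10 as the build. The sources used here give no annotation, strand setting or read filter. The authors deposited log2 values with a shared minimum of 6.508 in every library, the value a parametric variance-stabilizing transformation gives to a count of 0. Inverting it with that minimum and 1 factor per library gave whole numbers for 100% of the values within 0.001. These can be rounded estimates, so no count model was used.

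limma 3.58.1 in R 4.3.3 was fitted on log2(normalized count + 1), with an intensity trend, group as its only term and a minimum mean of 1. A fold change on this scale understates low genes. Adjusted p are two-sided and from limma. Ratios are of mean normalized counts, with exact binomial intervals where a group held 1 to 3 counts. The fits were also run on simulated counts with the same dispersion for every gene. That setting is simpler than these data, so the run does not give the error rate here.

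The 10 genes and the lists were chosen with earlier results of these data known. Named were the 10 genes, every list gene that passed, and the 3 most alike genes of the 3 with the smallest p. Other names, and all genes of the closing section, were chosen after their values were seen. Alternatives were scaling, pseudocount, filter, scale, trend, replicate block and leaving out each library. Exon lengths and overlaps came from GENCODE M21. Promoters are RefSeq's, with 8 of the 10 genes matched. Values of some list genes are not reported here.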

Additional observations from a re-analysis of the deposited data

How the results depend on the processing

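The log2 fold changes of the 5 tested genes were recomputed under 8 settings with 4 libraries and no block. Isl1 kept its call in 8 of 8. Insm1 lost it with a pseudocount of 5 (1.24), and could not be tested with a minimum mean of 5. Nts lost it with no intensity trend (3.68), and Cpe lost it with no filter (1.03) and with no trend (1.03). With no trend the number of the 10 genes called fell from 4 to 2 and that of all genes from 1467 to 623. Leaving out 1 library gave 0 of the 10 genes, 0 of the 13 list genes called and 0 to 2 of all genes, with log2 fold changes of 6.60 to 8.17 for Isl1, 2.60 to 3.29 for Insm1, 2.90 to 4.46 for Nts, 0.93 to 1.12 for Cpe and -0.78 to 0.18 for Chga, whose sign turned without G2 replicate 1. These fits have fewer samples, and the lone library of a group is assumed to vary like the other group. The cause of the other changes was not tested. Scaling by library totals moved the median of all genes from 0.012 to 0.079, and no called gene of the 10 changed direction.

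The replicate numbers name separate lines and pair nothing in the labels. With the replicate number as a block, 3503 genes passed, 4 of the 10 among them, and 18 of the list genes. Same-numbered libraries deviated together with a correlation of 0.109 across 13981 genes, which are not independent replicates. Depth limits what can be said of Neurod1, Neurog3, Chgb, Gcg and Pyy, which lie under the floor in every library.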

Other observations

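LIM-homeodomain factors such as Isl1 act in complexes with the adaptor LDB1 and single-stranded DNA binding proteins, and LMO proteins compete for the adaptor. In a list of 21 such genes, written after the values of Isl1 were known, 16 had a row and 12 were tested, of which 1 was higher and 0 were lower in G2 (median log2 fold change 0.05), near the 10.5% of all genes that passed. The 1 was Ssbp3, at 4666.0 and 4617.8 normalized counts in G0 and at 6649.0 and 7830.4 in G2 (adjusted p = 0.0354). Ldb1 stood at 2226.7 ± 203.8 and 2867.2 ± 72.8 (adjusted p = 0.135) and Lmo4 at 1041.0 ± 41.9 and 1161.7 ± 20.1 (adjusted p = 0.48). Isl2, the closest relative of Isl1, was at 0.0 ± 0.0 and 2.0 ± 2.8, and Lhx4 and Lmx1b were at 0 in all libraries. Lhx6, at 29.5 ± 1.4 and 9.9 ± 0.2, missed the threshold (adjusted p = 0.0687).

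Of 16 genes that hold back or redirect the endocrine fate, a list written at the same time, 13 were tested, 2 were higher and 0 were lower in G2 (median 0.01), also near the 10.5% of all genes that passed. Notch2, a receptor of the pathway that restricts secretory fates, stood at 1250.0 and 952.8 normalized counts in G0 and at 3107.2 and 2779.9 in G2 (2.67-fold, adjusted p = 0.0039). Id2, an inhibitor of bHLH factors, stood at 384.9 and 355.5 in G0 and at 665.6 and 964.8 in G2 (2.2-fold, adjusted p = 0.0202). Hes1, the main Notch target in the gut, stood at 1235.6 ± 69.9 and 1058.8 ± 187.0 (adjusted p = 0.404), and Rest, the repressor of neuronal and endocrine genes, at 146.8 ± 0.7 and 172.1 ± 12.3 (adjusted p = 0.542).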
